A study of Mus musculus with 2 samples.

Results

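The platelet-derived growth factor (PDGF) family was followed through the cell classes of the E11 aorta-gonads-mesonephros region (AGM), the embryonic site where the first hematopoietic stem cells arise. Its 6 genes were chosen by name from the 31053 genes of the count tables. They were the receptor genes Pdgfrb and Pdgfra and the ligand genes Pdgfa, Pdgfb, Pdgfc and Pdgfd. Whole AGMs of mouse embryos at embryonic day 11 were measured by droplet 3′ single-cell RNA sequencing in 1 library of the PDGFRB +/+ (WT) genotype and 1 library of the PDGFRB -/- (KO) genotype. The KO allele is carried in every cell of the embryo, and the study kept the line as heterozygotes on a C57BL/6J background. The 2 libraries were each loaded for 7000 cells, and no agent or further allele was part of this comparison.

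PDGF ligands are disulphide-linked dimers that bind and pair the receptor tyrosine kinases PDGFRα and PDGFRβ. PDGF-A and PDGF-C act mainly through PDGFRα, PDGF-B binds both receptors, and PDGF-D acts mainly through PDGFRβ. In developing vessels, endothelial PDGF-B recruits pericytes and vascular smooth muscle cells that carry PDGFRβ, whereas PDGF-A from epithelium and the myotome reaches mesenchyme that carries PDGFRα.

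Barcodes with 2000 or more unique molecular identifiers (UMIs) and under 10% mitochondrial UMIs were kept as cells, and KO cells with a Pdgfrb UMI were not removed. This left 8253 WT and 8165 KO cells with a median of 13321 and 12391 UMIs. Levels are given in CPM, the UMIs of a gene per 1000000 UMIs, both summed over the cells of a class in 1 library, with exact Poisson 95% intervals. Differences are the log2 of the KO CPM over the WT CPM with exact conditional binomial 95% intervals. With 1 library per genotype there is no test of genotype, and every interval covers counting error only. The X-linked transcript Xist was at 793 CPM in WT against 0.415 CPM in KO, and 4 Y-linked genes summed to 0.0266 CPM in WT and 163 CPM in KO, so that genotype, embryo sex and library cannot be told apart. Of the kept barcodes, 20 occurred in both libraries. Cells were gated into classes by marker genes. The 14 classes with at least 40 cells in each library are described, from 43 WT and 55 KO cells of nephric epithelium to 1210 and 1961 of sclerotome. The nephric epithelium class held its epithelial marker Epcam in 72.1% of WT and 81.8% of KO cells but Cdh1 in 11.6% and 3.64%, and its name rests on the gate. The 5 mesenchymal classes were sclerotome, smooth muscle and mural cells, splanchnic mesenchyme, nephrogenic mesenchyme, and body wall and other mesenchyme, and together they form the mesenchymal cells referred to below, 4919 in WT and 5391 in KO.

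Pdgfrb, the gene targeted in the KO, gave 6478 UMIs in the WT library and 1009 in the KO library. Its level over all kept cells was 43.1 CPM in WT and 7.09 CPM in KO. In mesenchymal cells it was 56.7 CPM in WT and 9.36 CPM in KO, a log2 difference of -2.60 (-2.71 to -2.49), which left the KO at 16.5% of the WT level. The gene lies on chromosome 18 of GRCm38 from 61045150 to 61085061 on the plus strand. 3′ tags were counted, and the sources used here do not say which part of the gene the allele removes, so the remaining UMIs do not show whether any transcript could encode the receptor.

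In WT, Pdgfrb was highest in the smooth muscle and mural class at 115 CPM (109 to 122). Body wall and other mesenchyme followed at 69.8 CPM, and both of these levels stood apart from their neighbours in the order. Nephric epithelium (50.3 CPM), nephrogenic mesenchyme (48.6 CPM), coelomic and gonadal cells (43.2 CPM), endothelial cells (38.2 CPM) and splanchnic mesenchyme (36.4 CPM) then formed a series in which each interval overlapped the next. The lowest levels were 10.6 CPM in Schwann cell precursors and 5.15 CPM in erythroid cells. Within the smooth muscle and mural class, Pdgfrb stood at 125 CPM in WT cells with a UMI of the smooth muscle actin gene Actg2, at 106 CPM in cells without Actg2 but with 2 or more of 6 mural markers (Notch3, Heyl, Rgs5, Kcnj8, Abcc9 and Ndufa4l2), and at 56.5 CPM in the cells with neither.

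The KO level of Pdgfrb was lower in 14 of 14 classes, with log2 differences from -5.62 in macrophages, where 69 WT UMIs stood against 1 in KO, to -1.33 in erythroid cells. Of 201 WT macrophages, 19 held a Pdgfrb UMI, 1 held 29 of the 69 UMIs, and 2 held most of them. Among all genes with 50 or more UMIs in every class, 7.27% were also lower in KO in all 14 classes. Some of the WT order of the classes was present in the KO, where smooth muscle and mural cells stood highest at 18.9 CPM, ahead of body wall mesenchyme at 11.7 CPM and nephrogenic mesenchyme at 11.3 CPM. Erythroid cells, which should lack the gene, held 2.05 CPM in KO, and the free RNA in barcodes with 100 or fewer UMIs held 11.5 CPM in KO and 25.8 CPM in WT. The interval of smooth muscle and mural cells (16.0 to 22.3 CPM) lay above both of these KO values, which rested on 10 erythroid and 27 free UMIs. No interval was computed for the free RNA, and body wall and nephrogenic mesenchyme stood near its level. Judged by globin UMIs, free RNA made up 0.849% of the UMIs of KO mesenchymal cells. Subtracting it left their Pdgfrb at 9.34 CPM against 9.36 CPM before. The part of free RNA in each class was not tested. Globin genes held 61.6% of the KO erythroid UMIs, which lowers the CPM of other genes there.

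In the KO, 801 cells held a Pdgfrb UMI, or 9.81% of cells against 33.8% in WT. Of these, 647 held 1 UMI, 116 held 2 and 38 held 3 or more, and the highest KO cell held 6 UMIs against 32 in the highest WT cell. Cells with 3 or more UMIs made up 27.2% of the positive cells in WT and 4.74% in KO. The positive KO cells were deeper than the rest, with a median of 20552 UMIs against 11892.5. Among erythroid cells, as a background, 2.69% in KO and 4.50% in WT held a Pdgfrb UMI, at a median of 19554 and 16752 UMIs. The 20 KO barcodes that also occurred in WT held 2 of the 1009 UMIs. A Pdgfrb UMI in the KO was therefore mostly a lone molecule in a deeply sampled cell, and the plot of receptor UMIs per cell shows this shift beside that of Pdgfra.

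**Figure D1:**
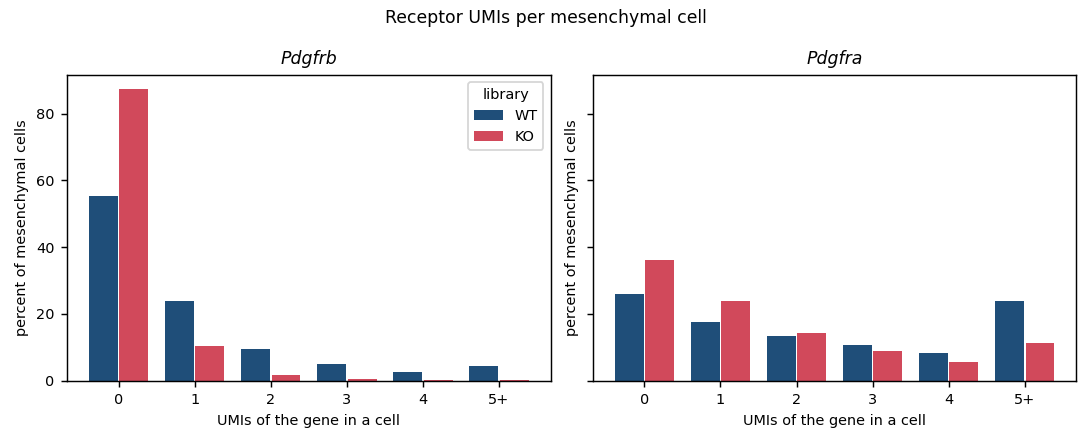
Percent of mesenchymal cells (y axis) with 0 to 4 or with 5 or more UMIs (x axis) of Pdgfrb (left) and Pdgfra (right) in the WT and the KO library. Cells without a Pdgfrb UMI were 55.2% in WT and 87.4% in KO, and cells with 5 or more Pdgfra UMIs were 24% in WT and 11.3% in KO.

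Endothelial cells of the WT held Pdgfrb at 38.2 CPM, or 67.4% of the mesenchymal level, with 155 UMIs in 28 of 113 cells. Mesenchymal markers were also present there. The summed level of the 12 body wall markers, all above 0, was 36.6% of the mesenchymal level and Pdgfra was 35.1%. In KO endothelial cells the 12 markers stood at 22.8%, Pdgfra at 25.5% and Pdgfrb at 32.5% of the KO mesenchymal level. The ratio of Pdgfrb to Pdgfra UMIs was 0.581 in WT endothelial cells, 0.302 in WT mesenchymal cells, 0.324 in macrophages and 0.229 in erythroid cells. WT smooth muscle and mural cells, a mesenchymal class, held 1241 Pdgfrb and 1144 Pdgfra UMIs. A single WT endothelial cell held 23 of the 155 Pdgfrb UMIs, and 4 cells held most of them. The study reported no Pdgfrb in its endothelial cluster. It called rare positive cells of its hemogenic endothelial and intra-aortic cluster populations likely doublets. The part of mesenchymal RNA or of doublets in the endothelial value was not tested.

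Pdgfra, which encodes the receptor of mesenchymal progenitors, had a broader pattern in WT. Its highest level was 235 CPM (228 to 244) in splanchnic mesenchyme, a level apart from the next, 219 CPM in body wall mesenchyme. Nephric epithelium (193 CPM), nephrogenic mesenchyme (175 CPM), sclerotome (166 CPM) and coelomic and gonadal cells (162 CPM) followed with overlapping neighbours. Smooth muscle and mural cells, first for Pdgfrb, came seventh for Pdgfra at 106 CPM. The lowest value was 22.5 CPM in erythroid cells, where 9.26% of WT cells held a UMI, against 120 CPM in the free RNA of the WT library.

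The KO level of Pdgfra was below the WT level in each of the 14 classes. In mesenchymal cells it was 188 CPM in WT and 117 CPM in KO, a log2 difference of -0.69 (-0.72 to -0.65), or 62.2% of the WT level. Over the 14 classes the difference ran from -1.29 in coelomic and gonadal cells, at 162 CPM in WT against 66.2 CPM in KO, to -0.42 in smooth muscle and mural cells, at 106 and 79.0 CPM, with a median of -0.66. All 14 intervals lay below 0, including that of erythroid cells, which should not express the gene, at 22.5 and 14.1 CPM (-0.67). Of all genes with 50 or more UMIs in every class, 7.27% were lower in KO in all 14 classes. No such share was computed for the intervals. The free RNA held Pdgfra at 120 CPM in WT against 105 CPM in KO.

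Within classes the lower Pdgfra was uneven. In smooth muscle and mural cells with Actg2 the levels were 83.8 CPM in WT and 79.5 CPM in KO (-0.08, interval -0.26 to 0.11), and in those without Actg2 but with 2 mural markers they were 167 and 78.6 CPM (-1.09, -1.39 to -0.79). In splanchnic mesenchyme, cells with a UMI of the stomach and spleen genes Barx1, Tlx1 or Nkx2-5 numbered 331 in WT and 17 in KO, and in the cells without them Pdgfra stood at 239 CPM in WT against 144 CPM in KO (-0.73). Muscle progenitors with a Myf5 UMI had 29.6 CPM in WT and 40.4 CPM in KO, a difference whose interval (-0.06 to 0.97) included 0. Megakaryocyte-gated cells, 18 in WT and 24 in KO, had 80.4 and 85.4 CPM from 28 and 80 UMIs.

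**Figure D2:**
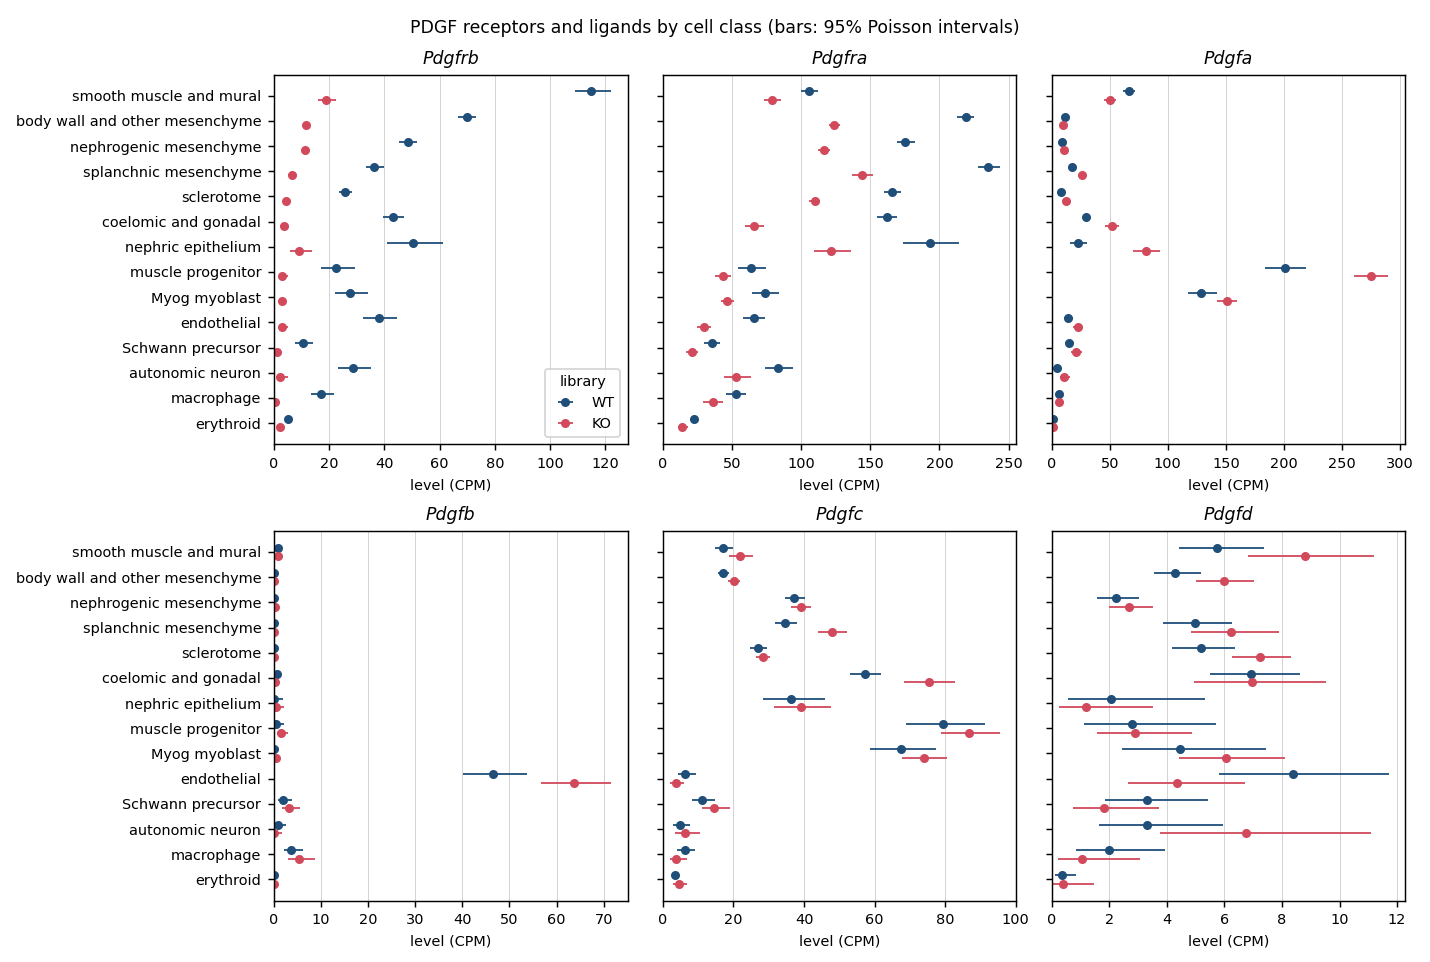
Level of each PDGF gene in CPM (x axis; scales differ between panels) in 14 cell classes (y axis) of the WT and the KO library, with exact Poisson 95% intervals as bars. Pdgfrb and Pdgfra stand lower in KO in every class, Pdgfa is highest in muscle progenitors (201 CPM in WT and 275 CPM in KO), and Pdgfb is high in endothelial cells (46.6 and 63.8 CPM).

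The study divides AGM stroma by PDGFRβ and NG2, the proteoglycan encoded by Cspg4. Mesenchymal cells of the WT were split here by whether they held a UMI of each of the 2 genes, which is not how the study defined its populations. This gave 340 double-positive (DP), 1865 PDGFRβ-single (PDGFRβ-S), 232 NG2-single (NG2-S) and 2482 double-negative (DN) cells. Pdgfra was present in all 4 gates at 159, 199, 181 and 182 CPM in that order, with DP lowest. Pdgfa was highest in DP at 41.8 CPM (37.8 to 46.2), against 15.9, 20.1 and 13.6 CPM in the others, and Pdgfc was lowest in DP at 17.9 CPM against 25.3, 27.6 and 29.6 CPM. The gates follow depth as well as expression, since the median was 21634 UMIs in DP and 11372 in DN cells.

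To compare the receptors within cells, every cell was thinned to 2000 UMIs. In WT mesenchymal cells Pdgfra was then found in 31.5% (27.4 to 35.7) of the 499 cells with a Pdgfrb UMI and in 26.9% (25.6 to 28.3) of the 4420 cells without, with exact binomial intervals that overlap. Before thinning the shares were 83.2% and 66.8%. Most cells of either kind could thus be shown to hold Pdgfra RNA at full depth, and detection of one receptor did not exclude the other. In the thinned KO the shares were 16.3% of 92 cells and 18.1% of 5299 cells.

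By level, Pdgfa and Pdgfc were highest in muscle progenitors and Pdgfb in endothelial cells of both libraries. Smooth muscle and mural cells, highest for Pdgfrb, also stood high for Pdgfa in WT and were highest for Pdgfd in KO. Pdgfa lies on chromosome 5 of GRCm38 from 138976014 to 138997370 on the minus strand and overlaps the gene 6330403L08Rik on the other strand. In WT its highest level was 201 CPM (184 to 219) in muscle progenitors, followed by 129 CPM in Myog myoblasts, the differentiating muscle cells, and 66.4 CPM in smooth muscle and mural cells. These 3 classes stood apart from each other and from coelomic and gonadal cells at 30.0 CPM and nephric epithelium at 22.3 CPM. Erythroid cells held 1.25 CPM, with a UMI in 1.91% of cells. At full depth 90.1% of WT and 95.7% of KO muscle progenitors held a Pdgfa UMI, and at 2000 UMIs per cell 30.9% and 48.4% did.

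In the KO, Pdgfa was higher in 12 of 14 classes and lower in 2, with 9 and 2 intervals apart from 0. No share over all genes was computed for these counts. Muscle progenitors had 201 CPM in WT and 275 CPM in KO (0.45, interval 0.30 to 0.60), and Myog myoblasts had 129 and 151 CPM (0.23, 0.06 to 0.39). The 2 muscle classes together had 161 and 200 CPM, a difference of 0.31 (0.20 to 0.42). Coelomic and gonadal cells had 30.0 and 51.6 CPM (0.78, 0.55 to 1.01). In the opposite direction, smooth muscle and mural cells had 66.4 CPM in WT against 49.97 CPM in KO (-0.41, -0.59 to -0.23), and body wall mesenchyme had 11.2 and 9.34 CPM (-0.27, -0.53 to -0.01). The lower Pdgfa of smooth muscle was seen in cells with Actg2, at 83.8 and 57.9 CPM (-0.53), and in the cells with mural markers the levels were 32.2 and 25.3 CPM (-0.35, -0.94 to 0.22). In the cells with neither they were 24.7 and 41.6 CPM (0.75, -0.11 to 1.63), and the differences between these subsets were not tested.

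The muscle difference depended on which progenitors were compared. In progenitors with a UMI of Myf5, the early muscle determination gene, Pdgfa stood at 270 CPM in 53 WT cells and 294 CPM in 115 KO cells, and the interval of the difference (-0.05 to 0.30) included 0. In progenitors without Myf5 it stood at 95.9 CPM in 28 WT cells and 243 CPM in 69 KO cells (1.34, 1.02 to 1.68). Pdgfra moved the other way in the same cells without Myf5, from 115.9 CPM for WT to 47.8 CPM for KO (-1.28), and its part in the Pdgfa difference was not tested. Muscle progenitors were 0.981% of WT and 2.25% of KO cells and Myog myoblasts 1.43% and 4.13%, and the muscle classes together held 26.9% of all Pdgfa UMIs in WT and 46.6% in KO. Over all kept cells, Pdgfa stood at 22.6 CPM in WT against 37.0 CPM in KO.

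Epithelial cells were few. In nephric epithelium Pdgfa stood at 22.3 CPM in WT against 81.3 CPM in KO (1.87, 1.38 to 2.38), from 43 UMIs in 16 of 43 WT cells and 202 UMIs in 27 of 55 KO cells. A single KO cell held 39 of these UMIs, and 3 KO cells held more than 50% of them. The collecting system marker Calb1 had a UMI in 16.3% of the WT cells against 40% of the KO cells in this class, and its part in the difference was not tested. The small gut and other epithelium class also had the skin keratin genes Krt5 and Krt14 among its markers, and its name rests on the gate. With this class, the epithelial difference was 1.78 (1.42 to 2.15), at 31.3 and 107 CPM. It came to 0.75 when each cell counted equally and to 0.81 with an interval that included 0 (-0.10 to 1.72) in cells under 5% mitochondrial UMIs.

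**Figure D3:**
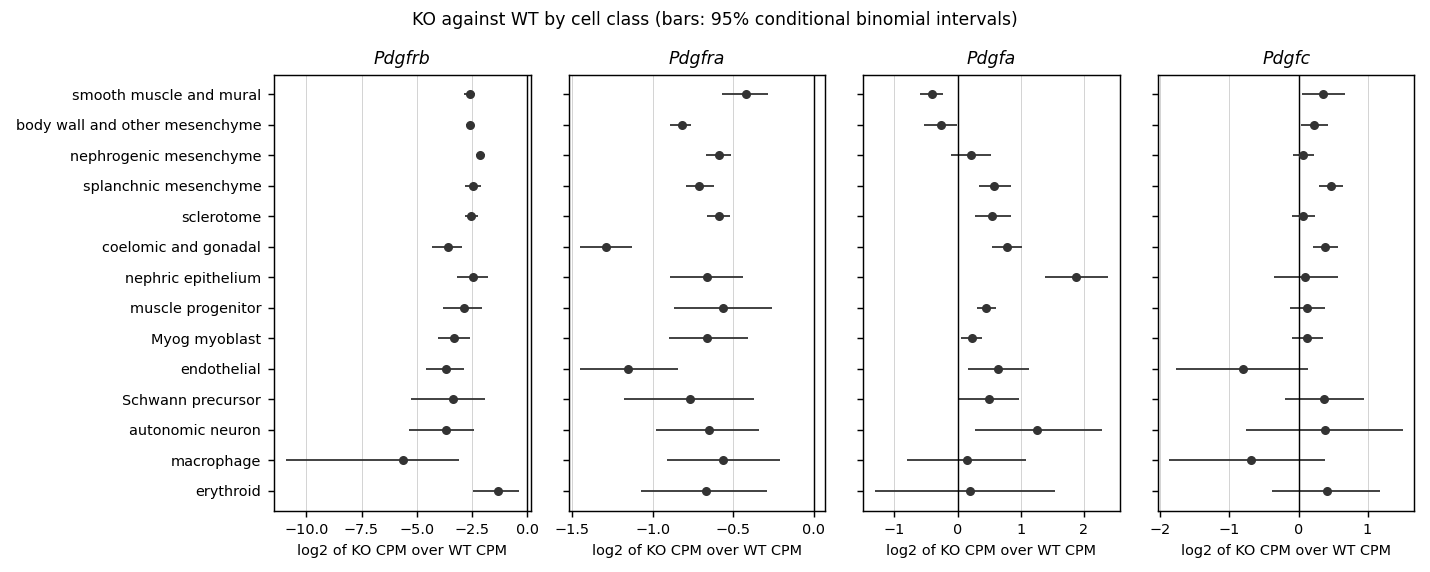
Log2 of the KO level over the WT level (x axis) of Pdgfrb, Pdgfra, Pdgfa and Pdgfc in 14 cell classes (y axis), with exact conditional binomial 95% intervals as bars and a line at 0. Both receptors lie below 0 in all classes, and Pdgfa lies on either side of 0, from -0.41 in smooth muscle and mural cells to 1.87 in nephric epithelium.

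Pdgfb, the ligand gene of endothelium, had 351 UMIs in WT and 454 in KO. Endothelial cells held 53.8% of them in WT and 64.8% in KO, and cells that passed the gates of unrelated classes and were set aside as mixed held a further 27.6% and 18.9%. Its endothelial level was 46.6 CPM in WT (40.2 to 53.7) and 63.8 CPM in KO (56.7 to 71.5), a difference of 0.45 (0.18 to 0.72). Cells with a UMI were 48.7% of 113 WT and 60.4% of 106 KO endothelial cells. Macrophages came next at 3.73 and 5.23 CPM from 15 UMIs each, followed by Schwann cell precursors at 1.98 and 3.11 CPM. No Pdgfb UMI was found in 734 WT or 223 KO erythroid cells, where 3 UMIs would be 0.221 and 0.615 CPM.

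Among endothelial cells, those with a larger share of arterial than of venous markers held 90.5 CPM in 26 WT cells and 133 CPM in 14 KO cells (0.56, interval -0.03 to 1.14). Those with more venous markers held 37.8 CPM in 82 WT cells and 57.5 CPM in 88 KO cells (0.60, 0.29 to 0.93). Cells with a UMI of a tip cell marker (Esm1, Apln, Angpt2 or Kcne3), 43 in WT and 68 in KO, held 51.1 and 71.3 CPM (0.48, 0.16 to 0.81), whereas the cells without one held 41.3 and 28.4 CPM (-0.54, -1.28 to 0.15). The KO level was thus not higher in every endothelial subset, and in cells without a Kit UMI it was 53.3 CPM against 56.3 CPM in WT (-0.08, -0.56 to 0.40). In both libraries Pdgfb was thus higher in arterial-marked than in venous-marked endothelial cells. Their intervals, which cover counting error only, did not overlap. The arterial-marked KO level rested on 44 UMIs from 14 cells, and 1 cell held 15 of them. How well these marker shares separate arterial from venous cells was not tested. The venous-marked cells were deeper, with a median of 38238.5 UMIs against 13911.5 in WT. One KO cell held 37 of the 294 UMIs, and without the highest cell of each library the endothelial difference was 0.37 (0.09 to 0.65). With every cell thinned to 2000 UMIs it was 0.90, with an interval (-0.45 to 2.36) that included 0, and with 1 marker fewer required for the class it was 0.23 (-0.18 to 0.64). Megakaryocyte-gated cells also held Pdgfb, at 34.5 CPM in the WT library against 20.3 CPM in the KO library, but 1 of the 18 WT cells held 11 of the 12 WT UMIs, whereas the 19 KO UMIs lay in 7 of 24 cells.

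By level, Pdgfc stood highest in the muscle and coelomic classes. In WT it was highest in muscle progenitors at 79.4 CPM, in Myog myoblasts at 67.6 CPM and in coelomic and gonadal cells at 57.3 CPM, each with an interval that overlapped the next. Nephrogenic mesenchyme (37.3 CPM), nephric epithelium (36.3 CPM) and splanchnic mesenchyme (34.7 CPM) formed the next group, and smooth muscle and mural cells, at 17.1 CPM, were below sclerotome at 27.0 CPM. The KO kept muscle progenitors first at 86.8 CPM, followed by coelomic and gonadal cells at 75.3 CPM and Myog myoblasts at 73.9 CPM. In mesenchymal cells the levels were 26.2 CPM in WT and 30.4 CPM in KO, a difference of 0.22 (0.13 to 0.30), which came to 0.05 (-0.20 to 0.30) with every cell thinned to 2000 UMIs. Over classes, 12 of 14 differences were above 0, and 4 intervals were, among them splanchnic mesenchyme at 34.7 and 48.0 CPM (0.47) and coelomic and gonadal cells at 57.3 and 75.3 CPM (0.39). The share over all genes was not computed for these class counts either.

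Pdgfd was detected at low levels, with 609 UMIs in WT and 732 in KO. The highest WT value was 8.38 CPM (5.80 to 11.7) in endothelial cells, and the intervals of all neighbouring classes down to macrophages overlapped. Arterial-marked endothelial cells had 28.2 CPM in WT from 19 UMIs and 18.2 CPM in KO from 6 UMIs, against 4.57 and 3.37 CPM in venous-marked cells. In all endothelial cells the levels were 8.38 CPM in WT and 4.34 CPM in KO (-0.95, -1.82 to -0.11), from 34 and 20 UMIs. In smooth muscle and mural cells they were 5.75 and 8.81 CPM (0.62, 0.10 to 1.14), and in mesenchymal cells 4.35 and 5.93 CPM (0.45, 0.25 to 0.64). The mesenchymal difference came to 0.06 (-0.52 to 0.63) with every cell thinned to 2000 UMIs.

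The plot of UMI shares sets the 6 genes side by side. Mesenchymal cells, which held 57.1% of all WT UMIs, held 75.0% of the Pdgfrb UMIs and 74.5% of the Pdgfra UMIs in WT. They held 56.3% of Pdgfc and 61.2% of Pdgfd UMIs, near their share of all UMIs, and 45.8% of Pdgfa and 4.56% of Pdgfb UMIs. The muscle classes, with 3.78% of all WT UMIs, held 26.9% of Pdgfa and 10.4% of Pdgfc UMIs, and smooth muscle and mural cells, with 7.19%, held 21.1% of Pdgfa UMIs.

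**Figure D4:**
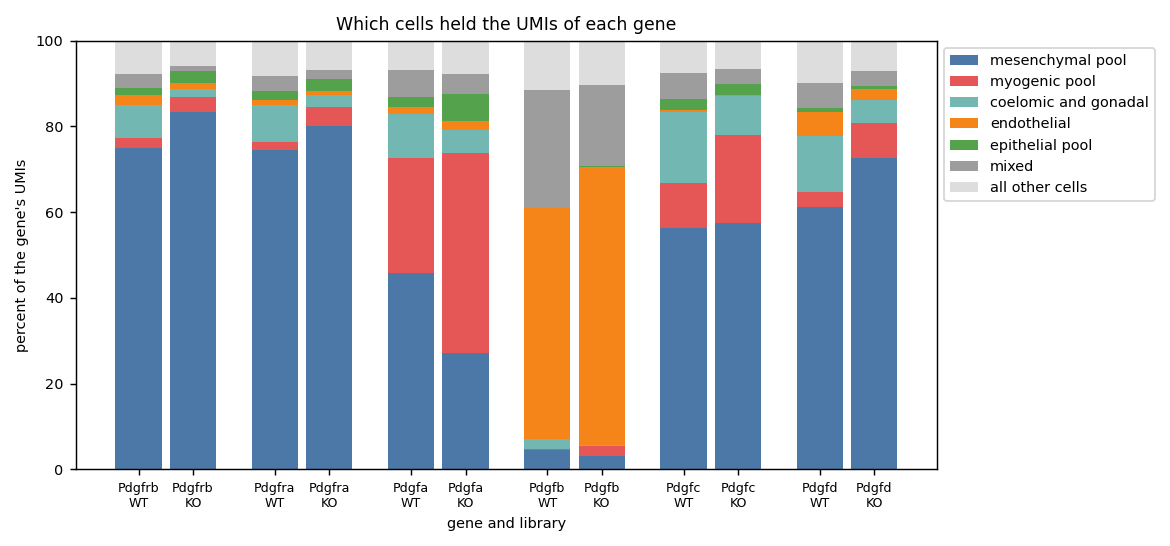
Percent of the UMIs of each PDGF gene (y axis) held by groups of cells (colors) in the WT and the KO library (x axis). Mesenchymal cells held most UMIs of both receptors, endothelial cells held 53.8% of Pdgfb UMIs in WT and 64.8% in KO, and muscle cells held 26.9% and 46.6% of Pdgfa UMIs.

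Genes whose levels followed a member over the 14 WT classes were listed by Pearson's r of log2(CPM + 1). Genes of the marker lists were left out, so the nearest genes named here are the nearest among the rest. These values describe classes of 1 library that share depth and free RNA, and the value over the KO classes follows each. The nearest to Pdgfrb were Cd248 (0.97 and 0.84), which encodes endosialin of pericytes and fibroblasts, Snai2 (0.96 and 0.85), a transcription factor of mesenchymal transition, and Tns1 (0.96 and 0.75). The nearest to Pdgfra were Fgfr2 (0.96 and 0.93), a fibroblast growth factor receptor, Ror2 (0.96 and 0.94), a Wnt5a receptor, and Crispld1 (0.95 and 0.92). Pdgfb was nearest to Clec1b (0.96 and 0.91), Icam2 (0.95 and 0.94) and Gimap4 (0.95 and 0.91), Pdgfc to Plce1 (0.93 and 0.91), 6230400D17Rik (0.93 and 0.75) and Net1 (0.91 and 0.90), and Pdgfd to Ppic (0.92 and 0.64), Furin (0.91 and 0.52) and Fam114a1 (0.89 and 0.72). Pdgfa was nearest to its overlapping gene 6330403L08Rik (0.91 and 0.81), whose reads may not be separable from those of Pdgfa because the use of strand in counting is not given in the sources used here, then to Mfap3l (0.90 and 0.78) and BC034090 (0.89 and 0.81). Pdgfrb and Pdgfra correlated with each other at 0.78 in WT and 0.74 in KO, and Pdgfa with Pdgfc at 0.76 and 0.73.

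In mesenchymal cells, genes past a 1.5-fold difference were counted among those with 50 or more UMIs over both libraries. Of 14490 such genes 5.18% were lower and 5.36% were higher in KO, with a median log2 difference of 0.03. Of the 5 members with enough UMIs, 2 were lower, Pdgfrb and Pdgfra, and none was higher. Pdgfrb is the gene that the KO targets, so its count says nothing further about the family.

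Pathway genes around the family were for the most part within 1.5-fold. None of the 32 measured genes of receptor signalling, which were adaptors and members of the phosphoinositide 3-kinase, Ras and MAP kinase routes with a median of 0.07, was past it. Among them, the adaptor Nck1 differed by -0.40 and the docking protein gene Gab1 by 0.25. None of the 14 genes of receptor turnover and brakes (median 0.06) was past it, the farthest being Socs1 (-0.30) and Spry1 (-0.29), which both dampen receptor signalling, and Ptprj (0.23) and Spred1 (0.27).

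Of the 12 genes of ligand processing and binding, 11 were measured, with a median of 0.14, and 1 was higher by 1.5-fold. This was Pcsk6, a proprotein convertase, at 1.66 CPM in WT against 2.76 CPM in KO (0.74), ahead of the related Pcsk7 at 11.5 and 16.1 CPM (0.48). Plat, the tissue plasminogen activator that processes PDGF-C, stood at 44.7 and 32.5 CPM (-0.46) and Plau at 0.723 and 0.546 CPM (-0.41). Of the 16 early response genes, which growth factors and also cell dissociation induce, 15 were measured, with a median of 0.04, and 2 were higher. They were Klf4 at 5.76 and 13.6 CPM (1.24) and Fosb at 9.59 and 18.2 CPM (0.92), while Egr2 (-0.36) and Srf (-0.33) were the farthest on the lower side.

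The related receptor tyrosine kinases differed from this. Of the 6 listed, 3 had enough UMIs in mesenchymal cells, and all 3 were lower in KO. They were Kdr, which encodes VEGF receptor 2 (15.8 and 3.85 CPM, -2.03), Flt1, which encodes VEGF receptor 1 (4.53 and 1.95 CPM, -1.22), and Kit, the stem cell factor receptor (23.9 and 12.7 CPM, -0.91). In endothelial cells, where VEGF receptors are chiefly used, Kdr stood at 318 CPM in WT against 406 CPM in KO (0.35, 0.25 to 0.46).

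Pdgfra, Kit and Kdr are neighbours on chromosome 5, where Pdgfra runs from 75152292 to 75198215 on the plus strand in GRCm38. With 1 library per genotype, the targeted allele and any other difference between the libraries in this region cannot be told apart, which also holds for the lower Pdgfra in KO. After these values were seen, all genes that start within 1 Mb of Pdgfra were listed. Of the 10 with 50 or more UMIs in mesenchymal cells, 5 were lower by 1.5-fold or more and none was higher. Since 3 of the 5 are the genes that prompted the listing, the count is a description of the region and is not read against the background. The lower genes were Pdgfra, Kit, Kdr, the noncoding gene Gm43101 between Kit and Kdr (0.887 and 0.501 CPM, -0.82) and Lnx1 (1.88 and 0.546 CPM, -1.78), which overlaps Fip1l1. Body wall mesenchyme held 127 of the 161 WT and 12 of the 49 KO Lnx1 UMIs of mesenchymal cells. For Kdr it held 1102 of 1354 WT and 187 of 346 KO UMIs. The mesenchymal differences of Lnx1 and Kdr thus rested largely on this class. Outside the mesenchymal cells, coelomic and gonadal cells held 66 WT and 2 KO Lnx1 UMIs. The genes Fip1l1 (-0.08), Chic2 (0.07), Scfd2 (-0.11), Srd5a3 (-0.20) and Rasl11b (0.32) lay within 1.5-fold. Chic2 starts nearest to Pdgfra and had 72.3 CPM in WT and 76.0 CPM in KO. Kit was lower in 12 of 12 classes with enough UMIs, from -1.21 in body wall mesenchyme to -0.09 in splanchnic mesenchyme, with intervals that included 0 in 4 of them, and Kdr in 6 of 8, from -2.44 in body wall mesenchyme to 0.49 in nephrogenic mesenchyme. For these class counts of Kit and Kdr no share over all genes was computed.

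**Figure D5:**
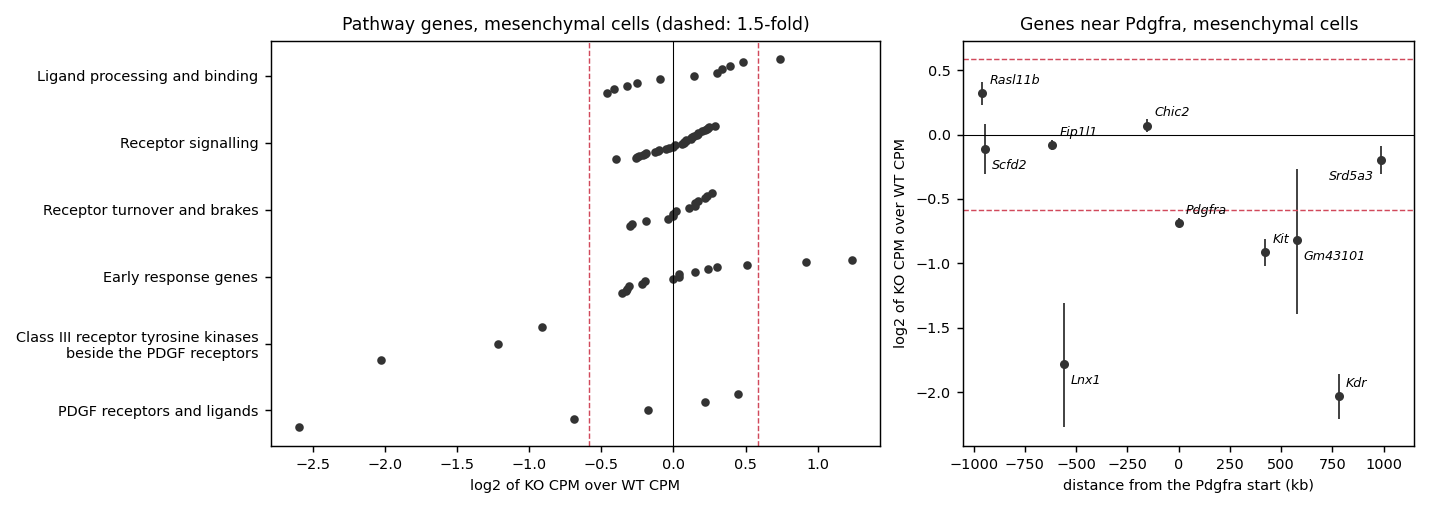
Left, log2 of the KO level over the WT level in mesenchymal cells (x axis) for measured genes of 5 pathway lists and of the PDGF family (y axis), with dashed lines at 1.5-fold. Right, the same quantity (y axis, 95% intervals as bars) against distance from the Pdgfra start in kb (x axis), where 5 of 10 genes lie below the lower dashed line.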

How the data were processed

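Whole AGMs were dissociated with collagenase and processed with the 10x Chromium 3′ v3 kit, 1 library per genotype. The authors aligned reads to mm10 (GRCm38) and counted UMIs with Cell Ranger 3.1.0. The deposited files hold unfiltered UMI counts per gene and barcode, in whole numbers, with no normalization. The libraries held 179743201 (WT) and 174597654 (KO) UMIs.

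Barcodes were filtered, gated and summed with Python 3.11.15, numpy, scipy and pandas. A cell entered 1 of 16 specific classes when 3 or more of its markers found in under 10% of cells were detected. Otherwise it entered the mesenchymal class with the highest mean standardized marker level, if 3 or more of its markers were detected. No doublet caller was run: 125 WT and 85 KO cells that passed gates of unrelated classes were set aside, and 1244 and 1122 cells remained unassigned. The members and lists were chosen with earlier results of these data known, and the gating rule after the data were seen. Named genes were the 6 members, the 2 largest differences in each direction of each pathway list, and the 3 genes most like each member. The last were taken among genes with 100 or more WT UMIs that were not in the marker lists. Gene positions come from GENCODE M21. Genes near Pdgfra, and the subsets of classes, were chosen after values were seen. The intervals, the thinning and the gate were tried on simulated counts drawn from pooled profiles. These leave out the clumping of UMIs in single cells, so the intervals were not tested for clumped counts. The 13 alternatives changed filters, gates, totals, weighting, free RNA, depth, doublets, shared barcodes, KO cells with Pdgfrb and class mix.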

Additional observations from a re-analysis of the deposited data

Results flagged for a closer look

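For 2 members, classes differed from WT in opposite directions with intervals apart from 0, and the difference between the classes was not tested. Pdgfa stood lower in KO in smooth muscle and mural cells (log2 difference -0.41) and higher in nephric epithelium (1.87). Pdgfd stood lower in KO in endothelial cells (-0.95) and higher in smooth muscle and mural cells (0.62).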

How the results depend on the processing

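Under the 13 alternatives, each of the 7 differences kept its direction wherever it was computed. So did the 4 differences for which alternatives were added after seeing the data, 2 for endothelial Pdgfb and 1 each for mesenchymal Pdgfra, muscle Pdgfa and epithelial Pdgfa. Outside the main interval were, with every cell thinned to 2000 UMIs, Pdgfra (-0.78) and Pdgfc (0.05) in mesenchymal cells, Pdgfa in muscle (0.62) and in epithelial cells (0.63), Pdgfb in endothelial cells (0.90) and Pdgfd in mesenchymal cells (0.06); the intervals of the last 3 and of Pdgfc included 0. When each cell counted equally, they were Pdgfra (-0.76), Pdgfa in muscle (0.20) and epithelial cells (0.75) and Pdgfc (0.13). Under 5% mitochondrial UMIs, which kept 3600 WT and 2915 KO cells, they were Pdgfrb (-2.12) and epithelial Pdgfa (0.81). With 1 marker fewer required, muscle Pdgfa was 0.51, and in Myf5 progenitors alone 0.12. Without cells above the 95th percentile of UMIs, Pdgfra was -0.73, and with KO classes weighted to the WT mix, Pdgfrb was -2.47. The cause of these moves was not tested. The highest WT class of each member was tried under 7 alternatives: under 5% mitochondrial UMIs it changed for Pdgfra (coelomic and gonadal cells) and Pdgfd, and with thinning for Pdgfd. Endothelial Pdgfb was not weighted by class mix, being 1 class, and KO Pdgfrb was not computed without KO cells that hold it. No paired analysis was possible because each genotype has 1 library. Depth limits Pdgfb and Pdgfd outside their main classes.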
